A study of Mus musculus with 18 samples.

Results

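Axons are steered during development by secreted and membrane-bound cues that are read by receptors on the growth cone. The genes described here are the mouse semaphorins, netrins, Slits and ephrins together with their plexin, neuropilin, Dcc, Unc5, Robo and Eph receptors. The rule that picks them matches gene symbols and uses no measured value, although the families were proposed with earlier results of these data known. It found 69 genes of the 36737 in the table: 20 semaphorins, 9 plexins, 2 neuropilins, 4 netrins, 5 netrin receptors (Dcc and the Unc5 genes), 3 Slits, 4 Robos, 5 ephrin-As, 9 EphA receptors, 3 ephrin-Bs and 5 EphB receptors. The ligands made up 35 of the 69 and the receptors 34.

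Their RNA was measured in L3 to L5 dorsal root ganglia (DRG), which hold the cell bodies of the sensory neurons that supply the hindlimb. The mice were adult CD1 animals, an outbred strain, described in the study's methods as 8 to 16 weeks old. There were 3 groups of 6 mice, each with 3 males and 3 females: sham surgery, tibial fracture with vehicle, and tibial fracture with protectin DX (PDX), a lipid mediator derived from docosahexaenoic acid. Tissue from both fracture groups was collected on day 3 after surgery; the day for sham mice and the PDX dose of these mice are not given in the sources used here. No genetic change is named for any group, and no group had sham surgery with PDX. Libraries were poly(A)-selected and strand-marking, and with 6 mice and 6 libraries in a group each library is 1 mouse.

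In the adult ganglion these families are known for roles beyond development, including the regrowth of injured axons, contact between neurons and glia, and the vessel wall. Class 3 semaphorins are secreted and act through neuropilins with plexin partners, whereas classes 4 to 7 are mostly membrane-bound and bind plexins directly. Netrins attract through Dcc and repel through the Unc5 receptors. Slits bind Robo receptors, and ephrins, which are held on the membrane, signal to Eph receptor tyrosine kinases on the neighboring cell.

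The libraries held 63235040 to 82824942 gene counts each. Xist and the Y-linked Ddx3y separated the libraries by sex as labeled, although the median Xist level in males was 4.88% of the female median and the median Ddx3y level in females 3.38% of the male median. The ganglion's neuron markers were present in every library, and 13 of them summed to 15400 to 16900 CPM (counts scaled to the library's total) in sham, 17100 to 18200 in fracture and 16300 to 18600 in fracture plus PDX mice. The 9 endothelial markers summed to 150 to 197, 132 to 156 and 129 to 147 CPM, and the 9 mural and fibroblast markers to 1660 to 2160, 1580 to 1840 and 1480 to 2010 CPM, in the same order. Schwann cell markers (8 genes) spanned 10900 to 24900, 12700 to 19600 and 15500 to 17300 CPM. Genes typical of other tissues were present too. The 8 skeletal muscle genes summed to 30.5 to 585, 51.9 to 1190 and 14.6 to 528 CPM, with overlap. The 6 placental genes summed to 169 to 549 CPM in sham against 28.5 to 257 and 27.2 to 135, and were present in every library, males included. The source of these reads was not tested. No marker gene was at 0 throughout a group, and the part these shifts play in the results below was not tested. In whole ganglia, fewer cells of a type and less RNA per cell cannot be told apart.

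All 69 genes passed the low-count filter in every comparison. Levels between genes were compared as deposited FPKM, which corrects for transcript length, and they covered more than 3 orders of magnitude. Sema3b, a secreted class 3 semaphorin, had the highest median over the 18 mice at 75.8 FPKM (58.1 to 103). It was followed by the membrane-anchored Sema7a at 30.5 FPKM (27.0 to 32.0), and then by the Sema7a receptor Plxnc1 at 24.1 FPKM (21.2 to 27.3) and the endothelial and neuronal plexin Plxnd1 at 21.1 FPKM (19.4 to 22.5). The ranges of Sema7a and Plxnc1 overlapped, as did those of Plxnc1 and Plxnd1, and Sema3b lay above every other gene in all 18 mice.

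The families differed in how their level was shared out. Slit1 (19.6 FPKM) stood far above Slit2 (1.97) and Slit3 (1.24), and Robo2 (9.67 FPKM) above Robo4 (1.26), Robo1 (1.14) and Robo3 (0.02). Ephb6, an Eph receptor whose kinase domain is inactive, reached 16.4 FPKM while the other EphB receptors ran from 3.27 (Ephb4) down to 0.455 (Ephb2). The EphA receptors were all low, from 1.17 FPKM for Epha2 to 0.13 for Epha1, although their ligand Efna1 was at 13.0 FPKM. Efna4 was the lowest ephrin-A at 0.41. Among the ephrin-Bs, Efnb1 was at 7.85 FPKM and Efnb3 at 1.18.

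The netrin system was modest throughout. Ntn4, a netrin of basement membranes, was at 3.13 FPKM and Ntn1, the classic attractive cue, at 2.86, with Ntn3 lowest at 1.21. Unc5b led the receptors at 2.82 FPKM and Dcc was the lowest at 0.11. Nrp2 (6.06 FPKM) exceeded Nrp1 (3.60) in every mouse, their ranges being 5.12 to 6.89 and 3.15 to 3.99. Plxna3 was the lowest plexin at 3.55 FPKM, which still placed all 9 plexins among the upper 30 of the 69 genes. Sema3a, the best known repellent of sensory axons, was the lowest semaphorin at 0.09 FPKM, and Robo3 was the lowest gene of all, with 0 to 23 reads per library.

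**Figure D1:**
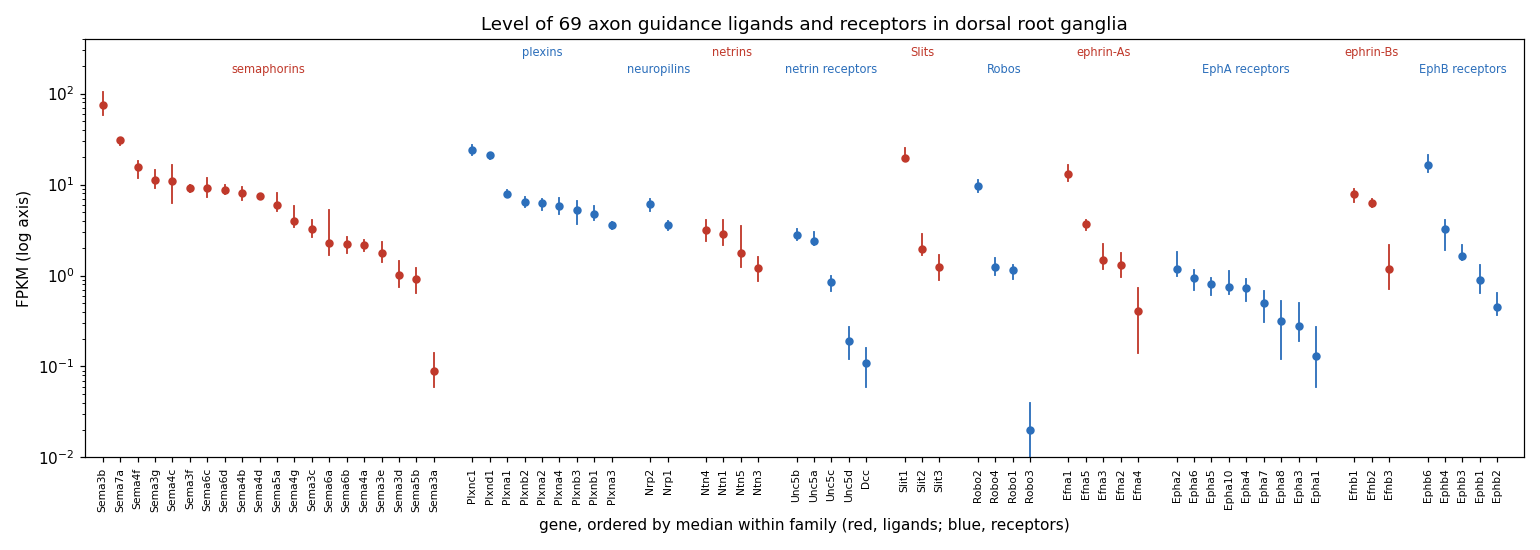
Median FPKM over 18 mice (dot) and the range from the lowest to the highest mouse (line) for each of 69 genes, grouped by family on a log axis, with ligands in red and receptors in blue; the line of Robo3, which reached 0, stops at the axis floor. Sema3b stands alone at 75.8 FPKM, the 9 plexins lie close together, and the EphA receptors all lie near or below 1 FPKM.

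The comparison of fracture with sham mice asks which genes differed 3 days after the injury. Of the 69 genes, 3 passed the edgeR quasi-likelihood test at an adjusted p under 0.05: Sema4b and Sema4f were higher and Ntn1 was lower after fracture. Over all 20659 genes tested, 2.92% passed, 1.09% as higher and 1.83% as lower, and 3 of 69 is 4.35%. At an unadjusted p under 0.05 there were 14 members (20.3%), against 18.5% of all genes. The median log2 fold change was -0.01 over the members and 0.00 over all genes, with 31 members above and 38 below 0. The 3 passing genes are all ligands, and no receptor passed. Both higher genes are class 4 semaphorins, transmembrane ligands that bind plexins of the B and D types.

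The 2 class 4 semaphorins were also the clearest mouse by mouse, in the same mice that picked them out. The exact permutation p-values below are not adjusted and are no independent evidence. The sequences shown here are the 250 bases before their RefSeq transcription starts (GRCm38.p6), shown because both genes rose and one can ask what their starts have in common. Sema4b has 2 RefSeq entries and Sema4f 1. For Sema4b the entry nearest the gene start given below is shown, and its window ends 29 bases inside the gene. Capitals mark each GC box (GGGCGG or its reverse complement CCGCCC).
Sema4b, chr7:80186620-80186869, plus strand: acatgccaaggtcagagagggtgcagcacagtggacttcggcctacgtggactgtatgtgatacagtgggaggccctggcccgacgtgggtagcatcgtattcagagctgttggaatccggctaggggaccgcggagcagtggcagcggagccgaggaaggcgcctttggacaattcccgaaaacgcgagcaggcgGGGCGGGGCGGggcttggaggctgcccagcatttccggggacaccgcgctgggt
Sema4f, chr6:82939770-82940019, minus strand: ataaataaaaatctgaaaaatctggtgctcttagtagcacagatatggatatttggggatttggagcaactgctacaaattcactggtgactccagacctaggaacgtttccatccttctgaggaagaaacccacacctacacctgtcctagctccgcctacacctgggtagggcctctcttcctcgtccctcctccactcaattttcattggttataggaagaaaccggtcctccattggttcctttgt
The windows share little in composition: the Sema4b window is 64.4% G and C and holds 2 overlapping GC boxes, whereas that of Sema4f is 46.0% G and C and holds none. Neither window holds the letters TGANTCA (the AP-1 motif) or TGACGTCA (the CRE motif) on either strand. Over all 32851 promoter windows of the same length, 32.7% hold a GC box, 6.75% the AP-1 letters and 1.55% the CRE letters. The 75 windows of the 59 members with an entry hold them in 70.7%, 4.0% and 1.33%. Absence of these letters says nothing about binding elsewhere.

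Sema4b (ENSMUSG00000030539, chr7:80186841-80226527, mm10) was at 42.7 to 49.5 CPM in sham mice (median 45.3), 49.8 to 55.8 in fracture mice (median 52.5) and 46.0 to 59.1 in fracture plus PDX mice (median 53.0). Every fracture mouse lay above every sham mouse, although the gap between the highest sham female and the lowest fracture female was small. The rise was a log2 fold change of 0.21 ± 0.04 (SE, n = 6 per group), with an edgeR adjusted p = 0.0221 and an exact permutation p = 0.00216 (two-sided), the smallest that 6 against 6 mice allow. The call was lost without sham male 3 (adjusted p = 0.056) or sham female 2 (adjusted p = 0.0534), at nearly the same size of change. With limma on FPKM it remained, close to the threshold (adjusted p = 0.0481 with a pseudocount of 1 and 0.049 with 0.1).

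Sema4f (ENSMUSG00000000627, chr6:82911885-82939769) behaved likewise at a higher level. It was at 69.2 to 86.2 CPM in sham (median 77.9), 88.1 to 106 in fracture (median 93.0) and 88.8 to 99.0 in fracture plus PDX mice (median 96.9). All 12 mice with a fracture, with or without PDX, lay above every sham mouse. Fracture against sham gave a 20.7% rise, log2 0.27 ± 0.06, with an edgeR adjusted p = 0.0248 and an exact permutation p = 0.00216. The edgeR adjusted p rose to between 0.0528 and 0.0621 without sham male 2, sham male 3, sham female 2 or fracture female 2, to 0.0927 with mice of the same sex and number taken as blocks, and limma on FPKM gave an adjusted p = 0.0527 and 0.0529 with the 2 pseudocounts.

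Ntn1 (ENSMUSG00000020902, chr11:68209364-68400823), which encodes the secreted netrin-1, was lower. It was at 19.4 to 28.3 CPM in sham (median 23.5), 16.8 to 21.0 in fracture (median 17.9) and 15.1 to 22.9 in fracture plus PDX mice (median 16.3). The groups overlapped: 4 of 6 fracture mice lay below every sham mouse. The fall was 20.9%, log2 -0.34 ± 0.08, edgeR adjusted p = 0.0445, exact permutation p = 0.00866. This was the least secure of the 3 calls. Leaving out any 1 of 10 of the 12 mice took it past the threshold (highest adjusted p = 0.0978), as did the block fit (0.101), the fit of all 18 libraries (0.0739) and limma on FPKM (0.0678 and 0.0671), always with a lower level in fracture. Markers of several other cell types mostly had log2 fold changes below 0 in this comparison. Of the 8 macrophage markers all were below 0 (median log2 -0.28) and 2 passed, Csf1r (edgeR adjusted p = 0.00733) and Adgre1 (edgeR adjusted p = 0.0139), with sums of 96.9 to 111 CPM in sham and 71.3 to 95.0 in fracture mice, without overlap. Below 0 were also 7 of 9 endothelial markers (2 passing), 8 of 9 mural and fibroblast markers (1 passing), 7 of 8 Schwann cell markers (none passing), all 8 neutrophil genes (median -0.81, none passing), all 6 erythroid genes (median -0.53, none passing) and all 6 placental genes (median -1.79, 1 passing). All 8 skeletal muscle genes were above 0 (median 2.08, none passing). So were 6 of 8 satellite glia markers (median 0.07), of which 1 passed as higher, Ednrb (log2 0.35, edgeR adjusted p = 0.00978). The part of these markers in the Ntn1 result was not tested.

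Several genes moved by similar amounts without passing. Slit3, a secreted Slit, went from 7.52 to 11.3 CPM in sham (median 9.24) to 5.94 to 9.30 in fracture mice (median 6.12). The 3 fracture females were within 5.99 to 6.14 CPM, below every sham mouse, while fracture males 1 and 3 were at 9.30 and 8.38. The log2 fold change was -0.43 ± 0.11 with an edgeR adjusted p = 0.0584, and it passed without fracture male 1 (log2 -0.50, adjusted p = 0.0395) or without sham male 1 (log2 -0.48).

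Slit1, the dominant Slit, went the other way; it, its receptor Robo2 and the female and male values of Plxna2 further below were singled out after the values were seen. Slit1 was at 119 to 127 CPM in sham (median 124) and 123 to 147 in fracture mice (median 136), with 5 of 6 fracture mice above every sham mouse (log2 0.13 ± 0.04, edgeR adjusted p = 0.0857). Robo2 was at 166 to 180 CPM in sham and 178 to 213 in fracture mice, again with 5 of 6 above (log2 0.15 ± 0.05, edgeR adjusted p = 0.0931). DESeq2, which called 9 members in this comparison, included Slit1, Slit3 and Robo2. Robo4, the Robo of endothelial cells, was at 7.33 to 9.08 CPM in sham and 6.40 to 8.88 in fracture mice (log2 -0.18 ± 0.09, edgeR adjusted p = 0.307).

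Among the Eph and ephrin genes, none passed. Ephb4, a receptor of the venous endothelium, was at 16.4 to 21.0 CPM in sham and 14.9 to 17.7 in fracture mice, 4 of which lay below every sham mouse (log2 -0.22 ± 0.07, edgeR adjusted p = 0.1). For its ligand Efnb2 the log2 fold change lay between -0.13 and 0.07 (± 2 SE). Efnb1 was at 29.2 to 33.2 CPM in sham and 24.7 to 31.1 in fracture mice (log2 -0.14 ± 0.05, edgeR adjusted p = 0.171). The largest log2 fold changes of these families were those of 2 weakly expressed genes. Epha1 was at 0.56 to 1.16 CPM in sham and 0.28 to 0.65 in fracture mice, 4 of which lay below every sham mouse (log2 -0.72 ± 0.26, edgeR adjusted p = 0.159). Efnb3 was at 4.06 to 7.37 CPM in sham and 2.55 to 5.01 in fracture mice, with 3 below (log2 -0.45 ± 0.17, edgeR adjusted p = 0.18). The medians of the families were -0.14 for the 3 ephrin-Bs, -0.04 for the 5 ephrin-As, 0.00 for the 9 EphA receptors and 0.02 for the 5 EphB receptors.

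The most abundant members mostly gave narrow intervals. For Sema7a the log2 fold change of fracture against sham was between -0.05 and 0.09 (± 2 SE), for Plxnd1 between 0.00 and 0.11, and for Plxnc1 between -0.01 and 0.17. Sema3b was less tightly placed, between -0.48 and -0.01, with 375 to 549 CPM in sham (median 424) and 309 to 459 in fracture mice (median 375; edgeR adjusted p = 0.302). The intervals were wide for Dcc (-0.59 to 0.45), with 61 to 176 reads per library, and for Robo3 (-2.15 to 0.96), with 0 to 23.

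**Figure D2:**
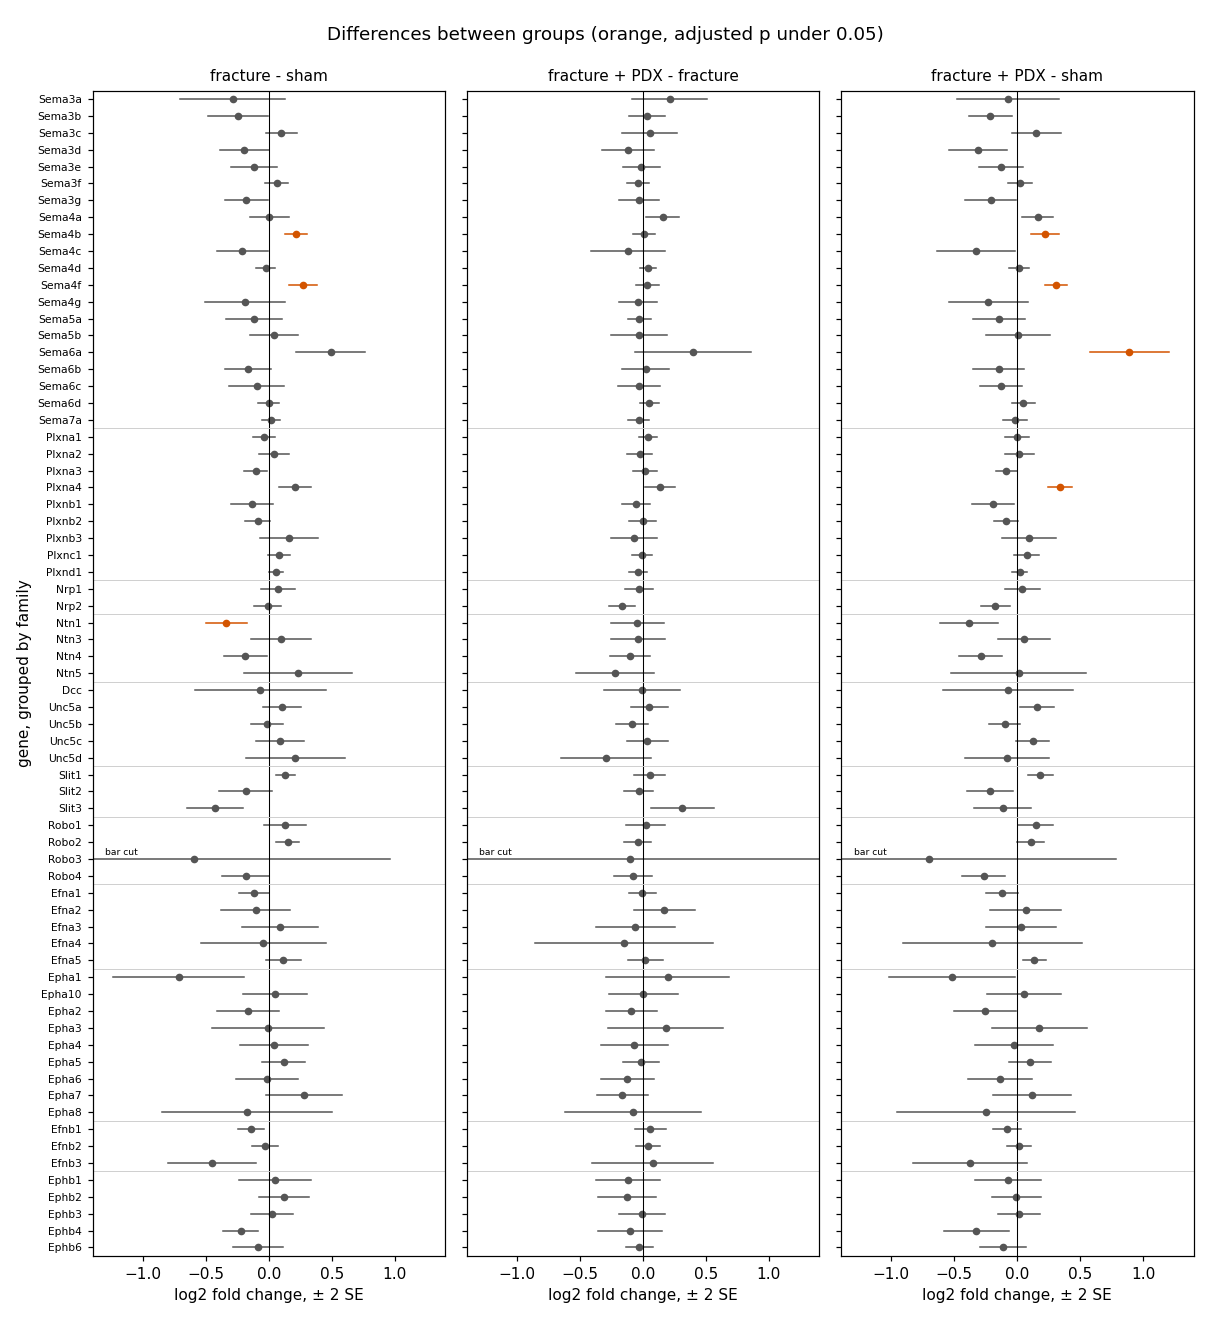
Log2 fold change (dot) with ± 2 SE (line) of each of 69 genes in 3 comparisons, families separated by grey lines, with adjusted p under 0.05 in orange; the lines of Robo3 are cut at the axis limits. Orange appears at 3 genes for fracture against sham, at none for fracture plus PDX against fracture, and at 4, all to the right of 0, for fracture plus PDX against sham.

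The effect of PDX was taken as fracture plus PDX against fracture with vehicle. No member passed, by edgeR or by DESeq2, and neither did any other gene by edgeR (0% of 20562), while DESeq2 called 15 genes in all. At an unadjusted p under 0.05 there were 4 members (5.8%), against 5.41% of all genes: Slit3, Sema4a and Plxna4 were nominally higher with PDX and Nrp2 nominally lower. The median log2 fold change was -0.03 over the members and 0.00 over all genes, with 26 members above and 43 below 0. By family, all 4 netrins, both neuropilins and all 5 EphB receptors were below 0, as were 6 of 9 plexins, 6 of 9 EphA receptors, 3 of 4 Robos, 3 of 5 netrin receptors, 3 of 5 ephrin-As, 10 of 20 semaphorins and 1 of 3 Slits, whereas all 3 ephrin-Bs were above 0. None passed, and 50% of all genes were below 0.

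Nrp2, a neuropilin that binds class 3 semaphorins and vascular growth factors, had the smallest p. It was at 76.2 to 90.1 CPM in sham (median 82.8), 74.7 to 90.0 in fracture (median 82.8) and 68.0 to 83.6 in fracture plus PDX mice (median 72.8). In 5 of the 6 PDX-treated mice it was below every fracture mouse, and the other one, female 3, was at 83.6. The log2 fold change was -0.17 ± 0.05 (edgeR adjusted p = 0.822, exact permutation p = 0.0173), and -0.20 without female 3 (adjusted p = 0.482). Nrp1 was between -0.14 and 0.08 (log2, ± 2 SE) in the same comparison.

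Slit3 was at 7.07 to 10.6 CPM in fracture plus PDX mice (median 8.28), between its sham and fracture medians. Its log2 fold change against fracture was 0.31 ± 0.13 (edgeR adjusted p = 0.887). Sema4a, a class 4 semaphorin known from T cells and the retina, was at 11.1 to 13.9 CPM in sham, 11.4 to 13.6 in fracture and 13.2 to 14.7 in fracture plus PDX mice, 4 of which exceeded every fracture mouse (log2 0.16 ± 0.07, edgeR adjusted p = 0.901). On the lower side the smallest p after that of Nrp2 were those of Unc5d and Epha7: Unc5d was at 1.37 to 2.77 CPM in fracture and 1.51 to 2.15 with PDX (log2 -0.29 ± 0.18), and Epha7 at 5.38 to 7.58 and 4.99 to 5.94 CPM (log2 -0.16 ± 0.10). For the 2 semaphorins that rose with fracture, PDX against vehicle gave log2 intervals of -0.08 to 0.09 (Sema4b) and -0.06 to 0.13 (Sema4f). Of the marker lists, the 8 neutrophil genes summed to 84.1 to 178 CPM in fracture and 74.6 to 444 in fracture plus PDX mice, and the 9 nerve injury genes to 353 to 644 and 372 to 705. All 8 neutrophil genes were above 0 with PDX (median log2 1.13, all 8 with an unadjusted p under 0.05), as were all 8 macrophage markers (median 0.25, 2 with such a p), all 9 nerve injury genes (median 0.55, 1 with such a p) and all 6 erythroid genes (median 0.28). All 8 skeletal muscle genes (median -1.91) and all 6 placental genes (median -0.505) were below 0. None of these markers passed at an adjusted p under 0.05, and their part in the values of Nrp2, Slit3 and Sema4a was not tested.

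Fracture plus PDX against sham asks how the treated mice stood relative to sham-operated ones; it shares the sham mice with the first comparison, and the second shares the fracture mice with the first, so the 3 are not independent. Here 4 members (5.8%) passed, all higher: Sema4f, Plxna4, Sema6a and Sema4b. Of all 20574 genes tested 4.5% passed, 2.17% as higher and 2.32% as lower. Below an unadjusted p of 0.05 were 17 members (24.6%), against 18% of all genes. The median log2 fold change was -0.03 over the members and 0.00 over all genes.

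Plxna4 (ENSMUSG00000029765, chr6:32144268-32588192) encodes plexin A4, the plexin through which sensory neurons read class 3 and class 6 semaphorins. It was at 72.9 to 85.1 CPM in sham (median 80.6), 79.8 to 106 in fracture (median 91.5) and 91.6 to 109 in fracture plus PDX mice (median 102). Every PDX-treated mouse was above every sham mouse, and in the fracture group 5 of 6 were. Against sham the rise in fracture plus PDX mice was 26.8%, log2 0.34 ± 0.05 (edgeR adjusted p = 0.00228, exact permutation p = 0.00216). For fracture alone it was log2 0.21 ± 0.06 (edgeR adjusted p = 0.0872), and for PDX against vehicle 0.13 ± 0.06 (edgeR adjusted p = 0.912). That the 2 fracture groups differ was therefore not shown.

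Sema6a (ENSMUSG00000019647, chromosome 18) is a transmembrane class 6 semaphorin and a ligand of plexins A2 and A4. No other member differed by as much in this comparison. Sham mice were tightly grouped at 15.9 to 19.8 CPM (median 17.3), fracture mice were at 19.4 to 39.6 (median 22.6) and fracture plus PDX mice at 22.7 to 50.1 (median 31.8). All 6 PDX-treated mice and 5 of 6 fracture mice exceeded every sham mouse. The treated group was 85.5% above sham, log2 0.89 ± 0.16 (edgeR adjusted p = 0.0101, exact permutation p = 0.00216), and 0.75 without its highest mouse, female 3 (adjusted p = 0.00419).

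For fracture alone Sema6a was 40.7% above sham, log2 0.49 ± 0.14, and did not pass (edgeR adjusted p = 0.077). The mouse that stood apart, fracture male 2 at 39.6 CPM, widened the spread: without it the log2 fold change was 0.33 and the adjusted p = 0.0439, and without fracture male 1 it was 0.57 with an adjusted p = 0.03. Between the 2 fracture groups the difference was log2 0.40 with an interval of -0.06 to 0.86 (± 2 SE; edgeR adjusted p = 0.917).

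Sema4f was 23.6% above sham in fracture plus PDX mice (log2 0.31 ± 0.04, edgeR adjusted p = 0.00228), a call kept in every fit that left out 1 mouse, as were those of Plxna4 and Sema6a. Sema4b was 16.4% above sham (log2 0.22 ± 0.05, edgeR adjusted p = 0.0389), with 4 of 6 mice above every sham mouse. All 3 treated males (54.1 to 59.1 CPM) were among these, while females ran from 46.0 to 51.8. Its call was lost in 10 of the 12 fits that left out 1 mouse (adjusted p up to 0.0936), with the block (0.0754) and with limma on FPKM (0.0879 and 0.0856).

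The lowest p on the lower side belonged to Ntn4, Ntn1 and Robo4, none of which passed. Ntn4 was at 12.9 to 16.5 CPM in sham (median 15.3) and 9.75 to 13.4 in fracture plus PDX mice (median 12.3), 4 of which were below every sham mouse (log2 -0.29 ± 0.09, edgeR adjusted p = 0.0809). Ntn1 was 23.3% below sham (log2 -0.38 ± 0.11, edgeR adjusted p = 0.0838), and passed without fracture plus PDX female 3, which had 22.9 CPM (log2 -0.48, adjusted p = 0.013). Robo4 was at 6.04 to 7.85 CPM in these mice, 5 of 6 below every sham mouse (log2 -0.27 ± 0.08, edgeR adjusted p = 0.101). Of the 9 endothelial markers 8 were below 0 in this comparison (median log2 -0.19), 3 of them passing as lower. The furthest below 0, the VE-cadherin gene Cdh5, was at 26.5 to 43.5 CPM in sham and 21.1 to 24.6 in treated mice. Others of the list overlapped between these groups, such as Tie1 (11.3 to 13.3 and 11.2 to 13.9) and Emcn (8.40 to 10.7 and 7.77 to 10.9). Below 0 were also all 9 mural and fibroblast and all 8 Schwann cell markers, none passing. All 6 placental genes passed as lower (median -2.29), and all 6 erythroid genes were below 0, none passing. Of the 8 macrophage markers 4 were below 0, Csf1r passing as lower. Above 0 were 5 of 8 satellite glia markers (2 passing), and all 8 neutrophil and 6 of 8 skeletal muscle genes (none passing). Whether Robo4 followed the vessel content was not tested, nor was the part of these markers in the members' values.

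**Figure D3:**
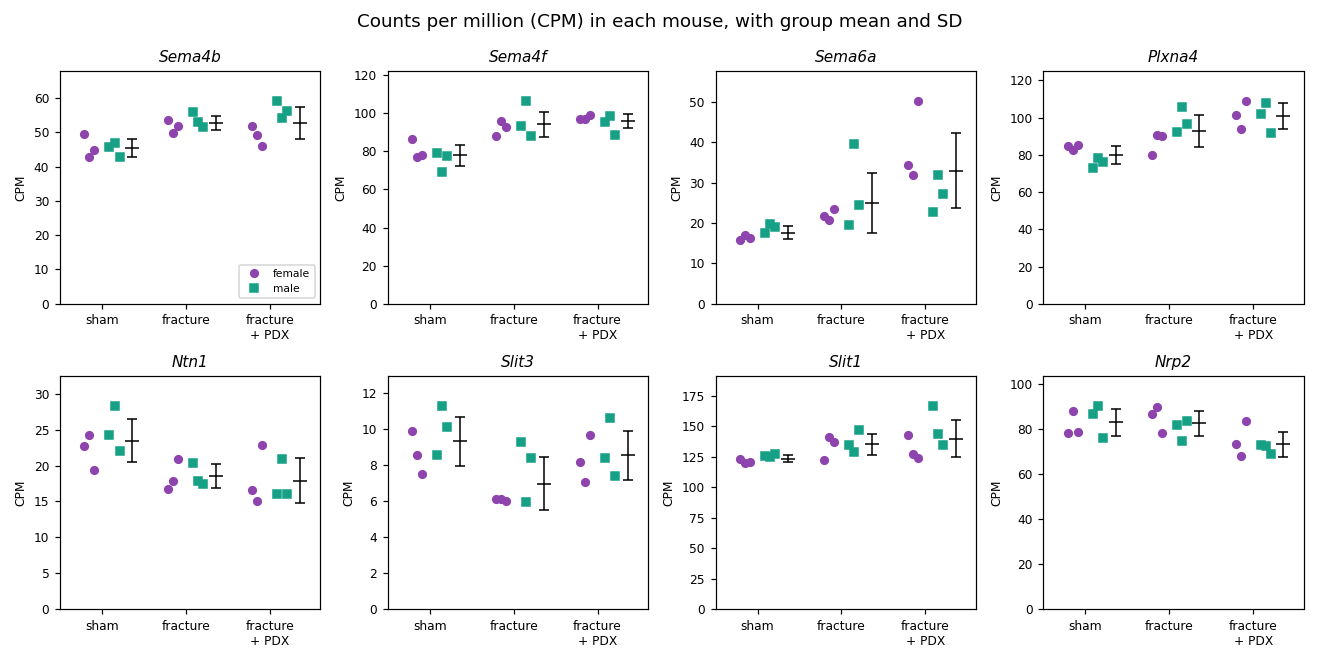
CPM of 8 genes in each mouse by group (circles, females; squares, males) with the group mean and SD beside the points, each axis starting at 0. Sema4f shows no overlap between sham and the 12 fracture mice, Sema6a spreads widely in both fracture groups, Slit3 is low in the 3 fracture females, and 5 of 6 treated mice have less Nrp2 than every fracture mouse.

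Sex was balanced in each group and entered every main edgeR fit, but not the exact permutation tests. Over the 18 mice, 1 member passed between males and females (1.45%, against 0.297% of 20527 genes): Sema6d, a class 6 semaphorin that binds plexin A1. It was at 89.7 to 98.3 CPM in sham females and 102 to 117 in sham males, 92.3 to 100 and 103 to 114 in fracture mice, and 97.3 to 103 and 103 to 118 in fracture plus PDX mice. Males were above females in sham and fracture without overlap, and 6 of 9 males exceeded every female. The difference was 13.5%, log2 0.18 ± 0.03 (n = 9 per sex, edgeR adjusted p = 0.0297). Between fracture and sham mice the log2 fold change of Sema6d lay between -0.09 and 0.08 (± 2 SE).

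The call for Sema6d was lost without any 1 of 10 of the 18 mice (highest adjusted p = 0.0726). Unadjusted p was under 0.05 for 9 members (13.0%), against 10.4% of all genes. Robo4 was the only one of the 9 that was lower in males (log2 -0.18 ± 0.07, edgeR adjusted p = 0.343), with 6 of 9 males below every female. Also lower in males were 7 of 9 endothelial markers (median log2 -0.02), all 8 macrophage markers (-0.11) and all 8 skeletal muscle genes (-1.22). Higher in males were 10 of 13 neuron markers (0.03) and all 6 erythroid genes (0.17). None of these markers passed, and their part in the members' values was not tested. The median log2 difference was 0.03 over the members, 49 of which were higher in males, and 0.00 over all genes. That count was 46 to 50 under the other scalings of the counts and 41 in both analyses of FPKM.

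No member's response to fracture differed between the sexes at an adjusted p under 0.05, nor did that of any gene by edgeR (0% of 22047; DESeq2 called 66), while 9 members (13.0%) and 7.04% of all genes had an unadjusted p under 0.05. In the same comparison no tissue marker passed, but the male minus female difference was negative for all 8 Schwann cell markers (median log2 -0.70, 2 with an unadjusted p under 0.05) and positive for all 8 skeletal muscle genes (median 3.81, 6 with an unadjusted p under 0.05), and their part in the members' values was not tested. The smallest p of a member was that of Plxna2, a class A plexin and Sema6a receptor, which DESeq2 called. Its 3 sham females were at 122 to 124 CPM and the 3 fracture females at 105 to 118, whereas sham males were at 103 to 114 and fracture males at 123 to 130. Within each sex the groups did not overlap, and they lay in opposite order. The male minus female difference in log2 fold change was 0.36 ± 0.07 (edgeR unadjusted p = 0.000271, adjusted p = 0.446). For Plxna4 it was 0.33 ± 0.09 (edgeR adjusted p = 0.52), with females at 82.7 to 85.1 and 79.8 to 90.5 CPM and males at 72.9 to 78.5 and 92.4 to 106.

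For PDX against vehicle, no member differed between the sexes at an adjusted p under 0.05 by edgeR or DESeq2 (0.00457% of 21878 genes did by edgeR, which is 1 gene, and 9 by DESeq2), and 4 (5.8%) had an unadjusted p under 0.05 against 4.14% of all genes. Sema6a was among them. Females were at 20.6 to 23.4 CPM with vehicle and 31.8 to 50.1 with PDX, without overlap, whereas males were at 19.4 to 39.6 and 22.7 to 31.8, with overlap (male minus female log2 difference -0.86 ± 0.38, edgeR adjusted p = 0.999). In the same comparison all 9 nerve injury genes (median log2 difference -1.14) and all 8 skeletal muscle genes (median -2.69) had a negative male minus female difference, while all 8 Schwann cell markers (median 0.27, 3 with an unadjusted p under 0.05) and all 6 placental genes (median 1.88) had a positive one. Of the 9 endothelial markers 6 were negative (median -0.12), 3 of them with an unadjusted p under 0.05. No marker of these lists passed at an adjusted p under 0.05, and their part in the Sema6a values was not tested. With 3 mice per sex and group these differences are imprecise.

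**Figure D4:**
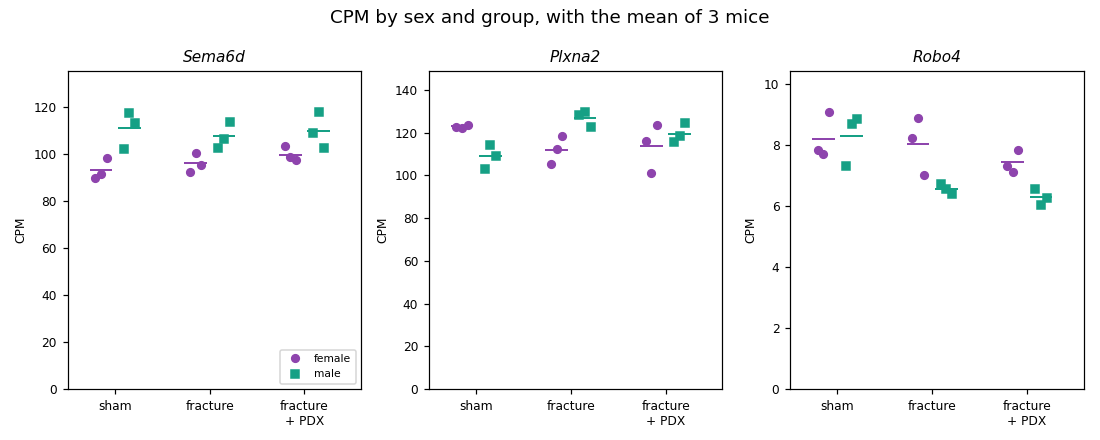
CPM of Sema6d, Plxna2 and Robo4 by group and sex (circles, females; squares, males; short bars, mean of 3 mice), each axis starting at 0. Sema6d is higher in males of sham and fracture mice without overlap, the sexes of Plxna2 change places between sham and fracture, and Robo4 is lower in males in both fracture groups.

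The other genes of the guidance pathway were read from a list of 97: 55 that carry the signal inside the cell, 24 adhesion and coreceptor genes, and 18 genes of other inhibitory cues and their receptors. The list was drawn up with earlier results of these data known, so its share of passing genes is a description and not independent evidence. In fracture against sham 11 were higher and 1 lower at an adjusted p under 0.05 (12.4% of the list, against 2.92% of all genes), and the median log2 fold change was 0.07, against 0.00 over all genes. Flrt3, an adhesion protein that binds Robo and Unc5 receptors, had the largest log2 fold change of those that passed: it was at 8.82 to 15.2 CPM in sham, 17.4 to 30.8 in fracture and 20.5 to 43.2 in fracture plus PDX mice, with no overlap between sham and either fracture group. Its log2 fold change was 0.91 ± 0.11 for fracture (edgeR adjusted p = 0.0025) and 1.35 ± 0.21 for fracture plus PDX (edgeR adjusted p = 0.00683), both against sham.

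The other higher genes were changed far less. Ncam1 (log2 0.16), a neural adhesion molecule, Mical1 (0.21), an actin-oxidizing enzyme downstream of plexins, and Rtn4 (0.12), the gene of the growth inhibitor Nogo, rose after fracture, with edgeR adjusted p = 0.0244, 0.0204 and 0.0231. Rtn4 was at 852 to 904 CPM in sham and 925 to 983 in fracture mice, without overlap. Dock1, an activator of Rac that works with Dcc, was the single lower gene (log2 -0.25, edgeR adjusted p = 0.0329), at 23.9 to 28.9 CPM in sham and 20.5 to 23.6 in fracture mice. Against sham, fracture plus PDX mice also had 11 higher and 1 lower (12.4%, against 4.5% of all genes), among them Trim9 (log2 0.22), a Dcc-binding ubiquitin ligase, Ncam1 (0.23), Rtn4 (0.16) and L1cam (0.17), with edgeR adjusted p = 0.00355, 0.00501, 0.00826 and 0.0101. PDX against vehicle gave none. Between the sexes 1 passed, Arhgef11, which acts downstream of B plexins and was higher in males (log2 0.18, edgeR adjusted p = 0.0487).

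Many of these genes are strongly expressed by neurons, and 12 of the 13 neuron markers had a log2 fold change above 0 and 1 below 0 in both comparisons against sham. Of these, 3 passed as higher for fracture (median over the 13, 0.12) and 2 for fracture plus PDX (median 0.11). The 9 nerve injury genes were higher by more, with medians of 1.41 and 1.96 and with 5 and 6 passing. Atf3, the injury transcription factor, was at 11.3 to 14.5 CPM in sham, 20.3 to 72.3 in fracture and 25.6 to 107 in fracture plus PDX mice. The 8 satellite glia markers had medians of 0.07 and 0.185, with 1 and 2 passing as higher and 2 and 3 below 0. How far the neuron or satellite glia content or the injury response accounts for the semaphorin and plexin changes was not tested.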

How the data were processed

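Bulk RNA-seq of 18 mouse libraries (6 per group) was used. Per the submitters' processing notes, reads were trimmed with cutadapt 1.10, checked with FastQC, aligned with HISAT2 to mm10 and assembled with StringTie; the counting tool and annotation release are not given in the sources used here. The authors deposited gene counts, which were tested, and FPKM values, which were used for levels between genes. Counts were filtered with filterByExpr (minimum 10, total 15), scaled by TMM and fitted with edgeR 4.0.16 (quasi-likelihood, sex plus group, in R 4.3.3), with Benjamini-Hochberg adjustment over all genes. CPM used TMM library sizes. Exact permutation tests used log2 CPM with a prior count of 2 (two-sided). Alternatives used limma 3.58.1 on log2(FPKM + 1) or log2(FPKM + 0.1) and DESeq2 1.42.0. The edgeR fits were also run on simulated data. The changes planted there were larger than those of the members that passed in fracture against sham, so smaller changes were not covered. Members and lists were chosen with earlier results of these data known. Genes were named if they passed any comparison, were among the 3 smallest p in either direction of a group comparison, had the highest or lowest FPKM of a family, or held a mouse standing apart from its group. Outside this rule, Sema7a, Plxnd1, Efnb2 and Plxna2 were chosen after their values were seen, and Slit2 and Robo1 are given by level only. No 2 libraries of a group were duplicates: chi-square per gene was 22.2 or more in all 45 pairs. Exons share bases with a gene on the other strand for Ntn5 (23.4%), Efna3 (14.1%), Plxna1 (10.7%), Efna4 (10.5%), Sema4c (7.27%) and Epha1 (6.01%), and with one on the same strand for Ntn3 (1.74%), Plxnc1 (1.38%), Sema4a (1.35%) and Nrp1 (1.03%); other overlaps found were under 3%, and the strand setting of the counting is not given. Gene coordinates were those of the file. RefSeq promoter entries matched 59 of the 69 members, and none was found for Plxna4, Ntn1 or Sema6a. Intervals cover counting and mouse-to-mouse spread as fitted.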

Additional observations from a re-analysis of the deposited data

Results flagged for a closer look

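In groups of 6, a mouse was picked out when its gap to the nearest other mouse took up an unusually large share of the group's range (Dixon's criterion at the 95% level). This was asked of 33 genes in 3 groups, 99 in all, and 5 were picked out, where chance alone gives about 1 in 20. In fracture plus PDX female 3, Efnb3 was at 7.39 CPM against 3.15 to 3.90 in the others, and Nrp2 at 83.6 against 68.0 to 73.2. Ntn4 was at 15.8 CPM in fracture male 1 against 11.6 to 12.9. Sema6a was at 39.6 CPM in fracture male 2 against 19.4 to 24.6. Sema4f was low in fracture plus PDX male 3, at 88.8 CPM against 95.6 to 99.0 in the others, and still above every sham mouse.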

How the results depend on the processing

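None of the 20 log2 fold changes of members named for their p-values changed direction under the alternatives tried. Of all 69 members, 31 were above 0 in fracture against sham, 33 with upper-quartile scaling and 30 in both limma fits. The count of 3 members in fracture against sham became 9 with DESeq2, 1 with the replicate block (sex and number), 1 with limma on log2(FPKM + 1) and on log2(FPKM + 0.1), and 0 to 5 when 1 mouse was left out: 0 without sham male 3 or sham female 2, 1 without sham male 2 or fracture female 2, and 5 without sham male 1 (Ntn5, Sema3g and Slit3 joining Sema4b and Sema4f, and Ntn1 dropping out). The count of 4 in fracture plus PDX against sham became 8 with DESeq2, and 3 to 7 when 1 mouse was left out, with 7 without fracture plus PDX female 3; the replicate block gave 3. The call between the sexes became 0 in both limma fits, and 0 to 1 when 1 mouse was left out. DESeq2 called 1 member in the sex difference of fracture. PDX against vehicle gave 0 members throughout, the block included. Of the values for single named members, 363 stayed on the same side of the threshold, 48 lost a call and 12 gained one. Over all genes, the 603 called in fracture against sham became 1511 with DESeq2, 118 with the block and 213 at the lowest when 1 mouse was left out, the 925 of fracture plus PDX against sham became 1620, 486 and 498, and the 61 between the sexes 330 with DESeq2 and 25 at the lowest; DESeq2 called 15 genes for PDX against vehicle. Deviations of mice of the same sex and number correlated at -0.14 to 0.26, over 0.1 in 5 of 18 pairs, against 4 of 36 pairs of the same sex with different numbers. Since not every pair was over 0.1, the main fit took no pairing from the numbers, but this rule cannot settle whether the mice were paired. The 3 male pairs of fracture and fracture plus PDX were all over it (0.259, 0.148 and 0.191). Male pairs of these groups with different numbers ran from -0.182 to -0.00703. The female pairs were not over it (0.086, -0.112 and -0.138), and those with different numbers ran from -0.125 to 0.215. The cause of these changes was not tested. The fewest reads per library were those of Robo3 (0 to 23), Efna4 (20 to 100) and Epha1 (22 to 88); how far depth or the spread between mice sets their errors was not tested.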
